A study of Saccharomyces cerevisiae with 6 samples.

Results

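Subtelomeric genes are described here as the gene models on chromosomes 1 to 16 that start within 20 kb of the first base of a chromosome's sequence or stop within 20 kb of its last gene model. The longest model within the window stood for each gene, which left 200 genes of 5382 on these chromosomes. The region next to a yeast telomere is packed with families of near-identical genes for the use of rare sugars, for transport and for the cell surface. Such genes are often kept low by silencing, in which Rap1 recruits the Sir2, Sir3 and Sir4 proteins to the telomere and Sir2 removes acetyl groups from histones. The repression is known to weaken with distance from the end and to differ between ends, and its enzyme uses NAD+.

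RNA was sequenced from 3 chemostat cultures of IMY104 and 3 of CEN.PK113-7D, each culture grown independently. CEN.PK113-7D is a prototrophic laboratory strain of Saccharomyces cerevisiae with intact ACS1 and ACS2. IMY104 is acs1Δ and acs2Δ, so it lacks the acetyl-CoA synthetases of the native cytosolic route. It carries plasmid pUDC140, with CEN6 and ARS4 and the Enterococcus faecalis genes pdhA, pdhB, aceF and lpd for a pyruvate dehydrogenase and lplA and lplA2 for its lipoylation. All cultures were aerobic and glucose-limited (7.5 g/L), with the dilution rate set to 0.10 per h at 30 °C and pH 5.0. Lipoic acid, at 500 ng/mL, was in the medium of both strains. The comparison asked how expression differs in a strain that makes cytosolic acetyl-CoA by the bacterial enzyme.

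For each gene model the authors' deposited table holds a single FPKM level per strain, which is fragments scaled to model length and library size, and the authors' own test over the 3 libraries of each. No SD can therefore be given, and depth is unknown. A gene is called where the authors' q-value is under 0.05. The log2 ratio is IMY104 over CEN.PK113-7D, and its median over all chromosomal genes was 0.01. As a check of the strains, the authors' deposited table lists ACS1 at 1094 and 0.882 FPKM and ACS2 at 494 and 0.179 FPKM in CEN.PK113-7D and IMY104.

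The members came from 29 of the 32 chromosome ends, with 4 to 11 genes at each. No model of the left ends of chromosomes 1, 9 and 16 started within the window. In the gene order of the S288C assembly R64, a median of 3 protein-coding genes (0 to 7 over the ends) lie farther out than the outermost member that sits on its own chromosome. Distances at left ends run to the first base of the sequence and those at right ends to the stop of the last gene model, so neither is a distance to a telomere. The outermost member lay at 0 at every right end but those of chromosomes 9 and 15, where it lay at 444 and 5441 bp. The name of 11 members belongs to a gene of another chromosome and 10 had no name. Reads of near-identical copies cannot be assigned with certainty, so the values of such families can hold reads of more than 1 copy.

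Subtelomeric genes had lower levels than other genes in both strains, but hardly any was silent. The median level, computed from the authors' deposited table, for the 200 members in CEN.PK113-7D was 52.8 FPKM, with 50.9 in IMY104, against 85.4 and 86.2 for the 5182 other chromosomal genes. Only 1 member, 0.5% of them, was under 1 FPKM in both strains, against 6 of the other genes (0.116%). That member was an unnamed model of chromosome 3 (1053 to 1604), listed at 0 and 0.127 FPKM and not tested in the authors' deposited table.

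At higher limits the members stood out more. Under 10 FPKM in both strains were 5.0% of the members against 2.14% of the other genes, and under 20 FPKM 15.5% against 6.91%. The 10 members under 10 FPKM included the hexose transporter genes HXT13 and HXT8, the seripauperin gene PAU16, the anaerobic cell wall mannoprotein gene DAN1, the ferric reductase gene FRE2 and the siderophore-retaining mannoprotein gene FIT1. NFT1, which encodes a putative transporter of the ABC family and lies 1020 bp from the end of chromosome 11, was listed at 5.55 and 5.01 FPKM, per the authors' deposited table. DMC1, which encodes a recombinase known from meiosis, was a member too and was listed at 24.7 and 23.4 FPKM in these vegetative cultures in the authors' deposited table. The library protocol names no step that marks the strand, so how much of such a level is the gene's own transcript was not tested.

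The lowest levels lay nearest the ends. Median levels in CEN.PK113-7D were 38.3 FPKM for the 44 genes within 5 kb and 41.8 for the 45 genes at 5 to 10 kb. They were 69.4 FPKM at 10 to 15 kb (48 genes), 53.2 at 15 to 20 kb (63 genes), 79.6 at 20 to 40 kb (263 genes) and 85.8 farther inside. Left and right ends, where distance is counted differently, were unlike within 5 kb. There the median in CEN.PK113-7D was 19.1 FPKM for 11 genes at left ends and 44.2 for 33 at right ends. The share of genes in the lowest 10% of all chromosomal genes by mean level of the strains was 29.5% within 5 kb, 28.9% at 5 to 10 kb, 16.7% at 10 to 15 kb, 15.9% at 15 to 20 kb, 13.3% at 20 to 40 kb and 9.35% beyond.

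**Figure D1:**
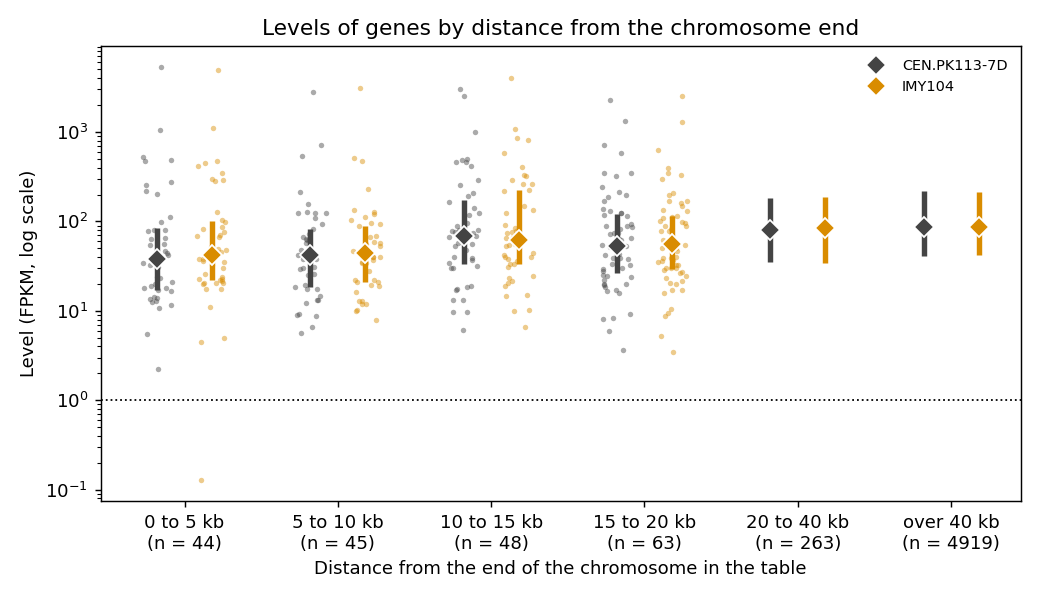
Levels of genes (FPKM, log scale) by distance from the end of the chromosome in the table, with 1 point per member and strain, diamonds at medians and bars over the quartiles, and a dotted line at 1 FPKM. Beyond 20 kb the median and quartiles alone are drawn, and a member listed at 0 in CEN.PK113-7D has no point there. Median levels in CEN.PK113-7D go from 38.3 FPKM within 5 kb to 85.8 over 40 kb, and a single point, at 0.127 FPKM, lies under the line.

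Strain differences were called more often among subtelomeric genes than over the genome. Of 199 tested members 53 were higher and 31 lower in IMY104 by the authors' q-values, together 42.2%. Over all 5375 tested chromosomal genes the same rule called 22.5% (11.5% higher and 11.0% lower). Of the members 26.6% were higher and 15.6% lower. A change of at least 2-fold was called for 10 members, 5 higher and 5 lower, which is 5.03% against a background of 1.75%. No test was made of the difference between these shares. The median log2 ratio of the members was 0.06, with quartiles of -0.13 and 0.31 (median 0.03 after quantile normalization of the strains), against quartiles of -0.11 and 0.13 for the other chromosomal genes.

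The share of rises was highest within 5 kb of an end. Within 5 kb, 21 of 43 tested genes were higher in IMY104 (48.8%) and 3 were lower (6.98%), with a median log2 ratio of 0.30. That median was 0.18 after quantile normalization of the strains and 0.20 with a pseudocount of 5 FPKM. It was 0.14 for the 24 tested genes there that stand on no list of gene families. From 5 to 10 kb, 11 genes were higher and 10 lower of 45, with a median of 0.08. From 10 to 15 kb, 6 were higher and 8 lower of 48, and from 15 to 20 kb, 15 were higher and 10 lower of 63, with medians of 0.02 and 0.01. From 20 to 40 kb, 41 of 263 were higher and 21 lower, with a median of 0.03, and beyond 40 kb, 525 of 4913 were higher and 538 lower. Across the 199 members with a level in both strains the log2 ratio had a Spearman rho of -0.17 and a Pearson r of -0.20 with distance, as a description of genes that share the same libraries. Members on their own chromosome were also ranked by gene order from the end in assembly R64. Of 40 at ranks 1 to 5, 17 were higher and 6 lower, with a median of 0.12. At ranks 6 to 10, 17 were higher and 15 lower of 97, with a median of 0.03. At ranks 11 to 15, 10 were higher and 8 lower of 37, with a median of 0.01.

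**Figure D2:**
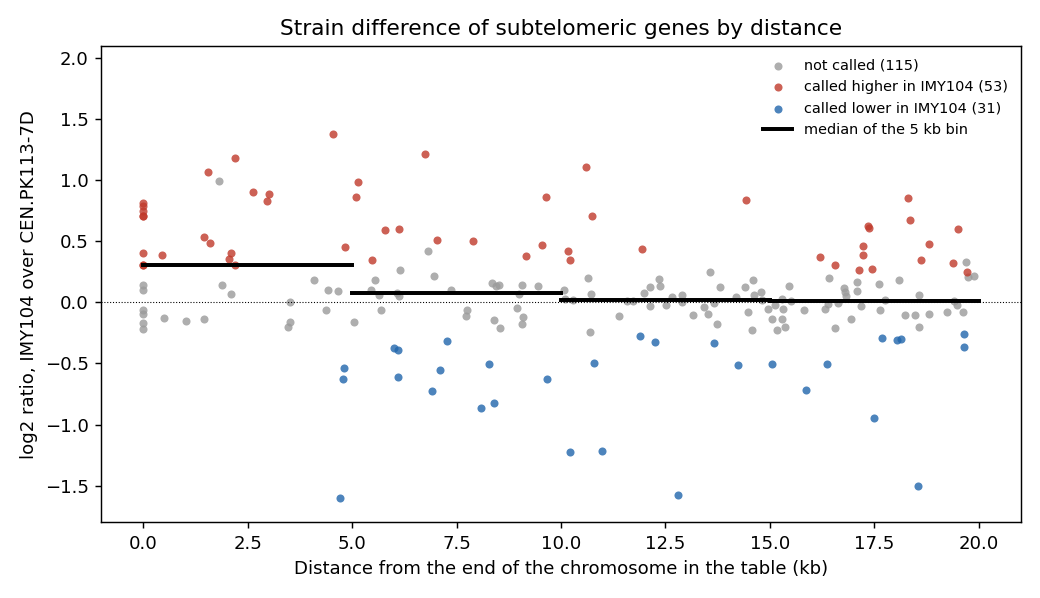
Log2 ratio of IMY104 over CEN.PK113-7D for each of 199 members against distance from the end of the chromosome in the table (kb), coloured by the authors' call, with black lines at the median of each 5 kb bin. The median is 0.30 within 5 kb and 0.01 at 15 to 20 kb, and 3 of the 31 falls lie within 5 kb.

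Low level moved with closeness to the end, so the calls were also set out by level. Among genes with a mean level of the strains from 10 to 20 FPKM, 9 of 24 members were higher and 1 lower, against 43 and 11 of 283 other genes. From 20 to 40 FPKM, 12 of 42 members were higher and 5 lower, against 75 and 66 of 826 others. From 40 to 80 FPKM, 11 of 53 members were higher and 12 lower, against 117 and 80 of 1213 others. Above 160 FPKM, 9 of 38 members were higher and 9 lower, against 182 and 279 of 1642 others. From 80 to 160 FPKM, 9 of 28 members were higher and 4 lower, against 119 and 116 of 1093 others. Within 10 kb of an end, rises outnumbered falls at each of these levels, in small groups. Counts were 7 to 1 among 14 genes from 10 to 20 FPKM and 8 to 3 among 21 from 20 to 40. They were 7 to 4 among 22 from 40 to 80 and 4 to 3 among 12 from 80 to 160. Above 160 FPKM they were 4 to 2 among 13. Across the 199 members the log2 ratio had a Spearman rho of -0.19 with level, beside -0.17 with distance. Under 10 FPKM the other genes also leaned upwards, with 30 of 119 higher and 7 lower, and 3 of 14 tested members were higher and none lower.

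**Figure D3:**
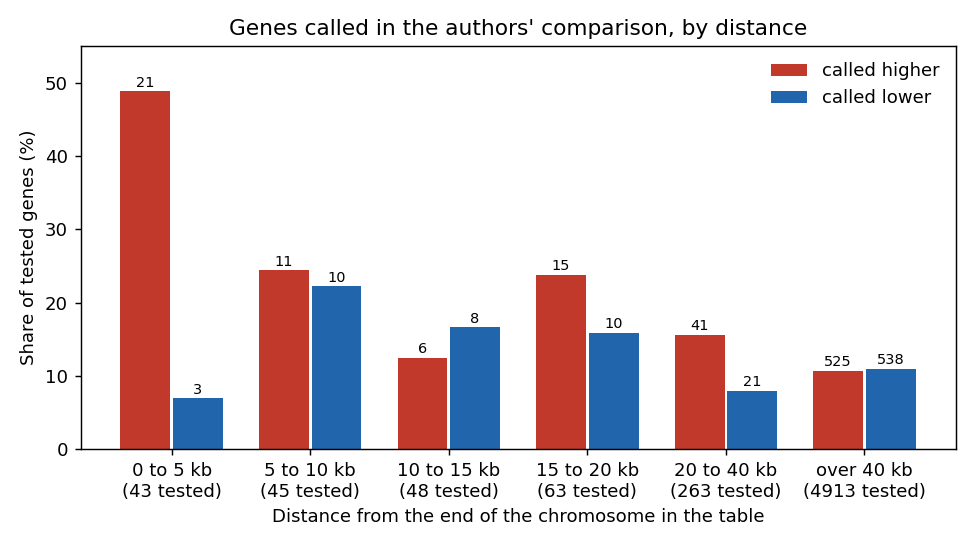
Share of tested genes (%) called higher or lower in IMY104 by the authors' q-values under 0.05, by distance from the end of the chromosome in the table, with the number of genes above each bar. Within 5 kb 48.8% were higher and 6.98% lower, while at 20 to 40 kb 15.6% were higher and 7.98% lower.

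The outermost member of an end was called higher at 14 of the 29 ends and lower at 2, was not called at 12 and was not tested at 1. Beside this, 48.8% of tested genes within 5 kb and 11.5% of all tested chromosomal genes were higher. The outermost member lay as far in as 10106 bp, at the left end of chromosome 14. Rises outnumbered falls at 17 ends and falls outnumbered rises at 6. The median log2 ratio of an end ran from -0.13 at the left end of chromosome 13 to 0.66 at the left end of chromosome 7. At that end of chromosome 7 the first 4 members all rose: COS12 at 2621 bp, YGL262W at 5144 bp, a model named PAU8 at 6122 bp and VEL1 at 10745 bp. The next members inward, the mannosyltransferase gene MNT2 and the alcohol dehydrogenase gene ADH4, had log2 ratios of -0.03 and 0.02 and were not called, per the authors' deposited table.

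A like arrangement stood at the right end of chromosome 5, where the 3 outermost models rose and the 8 farther in were not called. The 3 were an unnamed model at the edge with a log2 ratio of 0.71, YER187W with 0.41 and an unnamed model of 198 bp with 0.83 in the authors' deposited table. The authors' annotation describes YGL262W, of the left end of chromosome 7, as similar to YER187W, and YER187W as similar to the precursor of a killer toxin. The left end of chromosome 13 went the other way, with 4 falls and 1 rise among 9 members. The left ends of chromosomes 3 and 4 had no call.

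**Figure D4:**
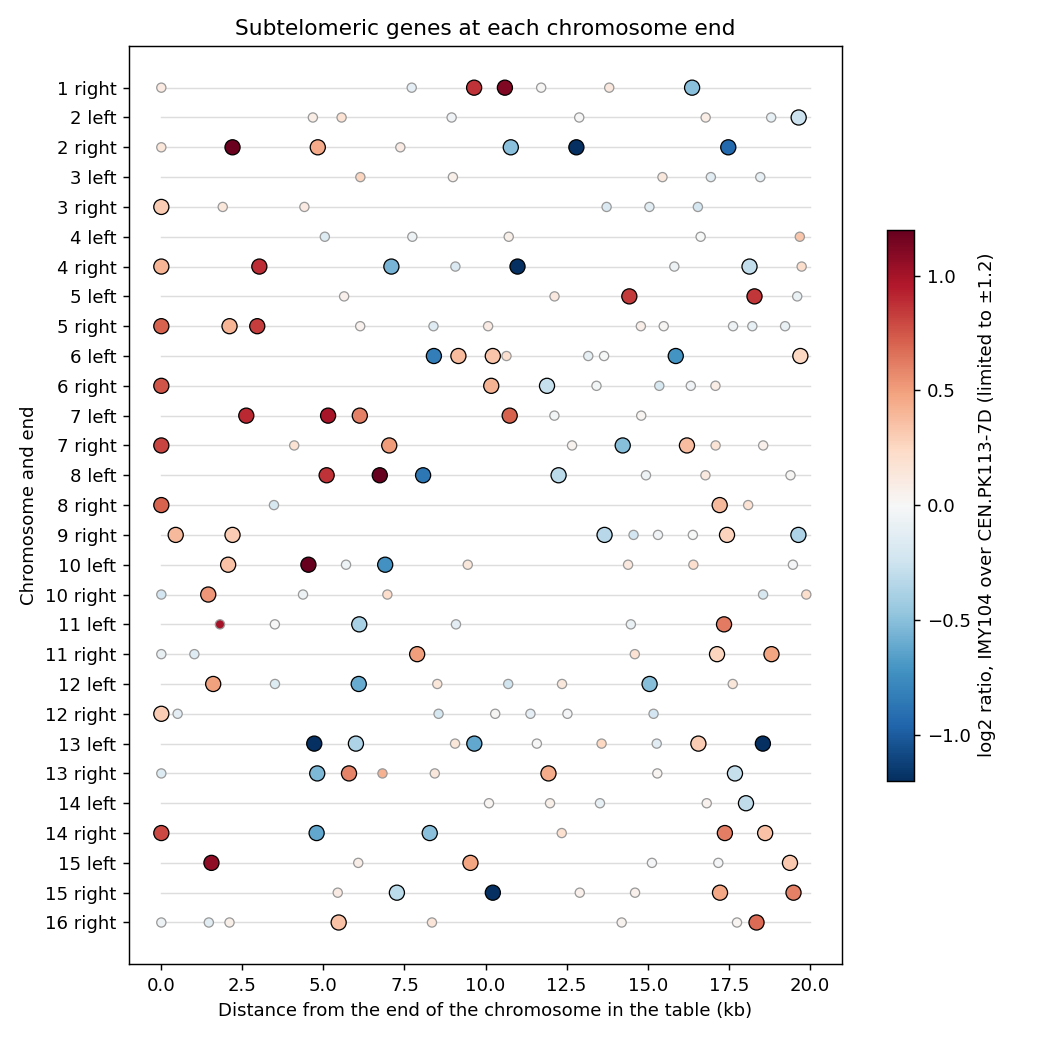
Members at each of the 29 chromosome ends by distance from the end of the chromosome in the table (kb), coloured by log2 ratio of IMY104 over CEN.PK113-7D (colours limited to ±1.2), with large outlined points for genes called by the authors' q-values. The outermost gene is called higher at 14 ends and lower at 2, and the right end of chromosome 5 holds 3 rises at its edge and no other call.

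The 12 largest rises included maltase, dehydrogenase, COS and DUP240 genes. YJL218W (chromosome 10, 4537 to 5127), whose product resembles bacterial sugar acetyltransferases, went from 14.0 FPKM in CEN.PK113-7D to 36.4 in IMY104, a 2.60-fold rise in the authors' deposited table. MAL32 (chromosome 2, 800182 to 801936), which encodes a maltase that splits maltose into glucose, went from 485 to 1101 FPKM, a 2.27-fold rise in the authors' deposited table. Among the 12 largest rises MAL32 had the highest level, and apart from DLD3 the others were under 55 FPKM in both strains. AAD15 (chromosome 15, 1546 to 1977), of the aryl-alcohol dehydrogenase family, went from 18.1 to 37.9 FPKM, per the authors' deposited table. All rises of at least 2-fold carried q = 0.00047, the smallest q in the table, which 51 members share.

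DFP4 and KTD1 belong to the DUP240 family of membrane proteins. DFP4 (chromosome 8, 6738 to 7445) went from 5.59 to 13.0 FPKM and KTD1 (chromosome 1, 184803 to 185507), a defence factor against a killer toxin, from 17.4 to 37.6 FPKM, per the authors' deposited table. The family, chosen here after its values were seen, had 6 members in the window, 3 higher, 1 lower and 2 not called. Over all tested members 42.2% were called, and over all chromosomal genes 22.5%. DFP2 rose with a log2 ratio of 0.86 (q = 0.00751) on a model of 225 bp, and DFP1 fell with -0.50 in the authors' deposited table. UIP3 and MST28 had 0.01 and -0.11 and were not called, per the authors' deposited table. The rises thus did not extend to every copy in the tandem array on chromosome 1.

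The remaining genes among the 12 largest rises were called at 1.79-fold to 1.98-fold. YGL262W went from 25.7 to 50.9 FPKM, COS12 from 19.1 to 35.6 and IRC4, named for its effect on recombination foci, rose 1.85-fold from 10.8 in the authors' deposited table. PAU20 (q = 0.0162) rose 1.82-fold from 6.61 FPKM on chromosome 8, and a shorter model with its name on chromosome 15 rose too, with a log2 ratio of 0.81, in the authors' deposited table. Farther in on the left end of chromosome 5 the neighbours DLD3, an enzyme that oxidizes D-2-hydroxyglutarate, and DSF1, a mannitol dehydrogenase, both rose. DLD3 went from 458 to 820 FPKM and DSF1 from 29.9 to 54.2 in the authors' deposited table.

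The largest falls lay between 4 and 19 kb from an end and included transporters and enzymes with high levels. YML131W (chromosome 13, 4717 to 5814), of the medium-chain dehydrogenase family, went from 1059 to 350 FPKM, a 3.03-fold fall in the authors' deposited table. PCA1 (chromosome 2, 787680 to 791330), a metal-exporting P-type ATPase, went from 69.7 to 23.3 FPKM and its neighbour SUL1, a sulfate permease, from 577 to 300 in the authors' deposited table. The high-affinity phosphate transporter gene PHO84 (chromosome 13, 18554 to 20317) went from 85.8 to 30.2 FPKM, per the authors' deposited table. FDH1 (chromosome 15, 1071765 to 1072895), which encodes formate dehydrogenase, went from 2541 to 1088 FPKM, the largest fall in FPKM among the members, in the authors' deposited table. STL1, a glycerol importer, went from 57.7 to 24.8 FPKM, per the authors' deposited table.

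The other falls among the 12 largest were 1.54-fold to 1.82-fold. ECM34 went from 126 to 69.0 FPKM, and a model named DDI2, for a cyanamide hydratase with a near-identical copy, from 157 to 88.3 in the authors' deposited table. The isomaltase gene IMA5 had 66.4 and 40.2 FPKM, the amino acid permease gene AGP3 53.2 and 32.4, MSC1 723 and 469, and BSC5 31.2 and 20.3 in the authors' deposited table. Each of the 12 carried q = 0.00047 in the authors' deposited table. On the right end of chromosome 2 both directions met, with MAL32 and the maltose permease gene MAL31 higher and PHO89, PCA1 and SUL1 lower.

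**Figure D5:**
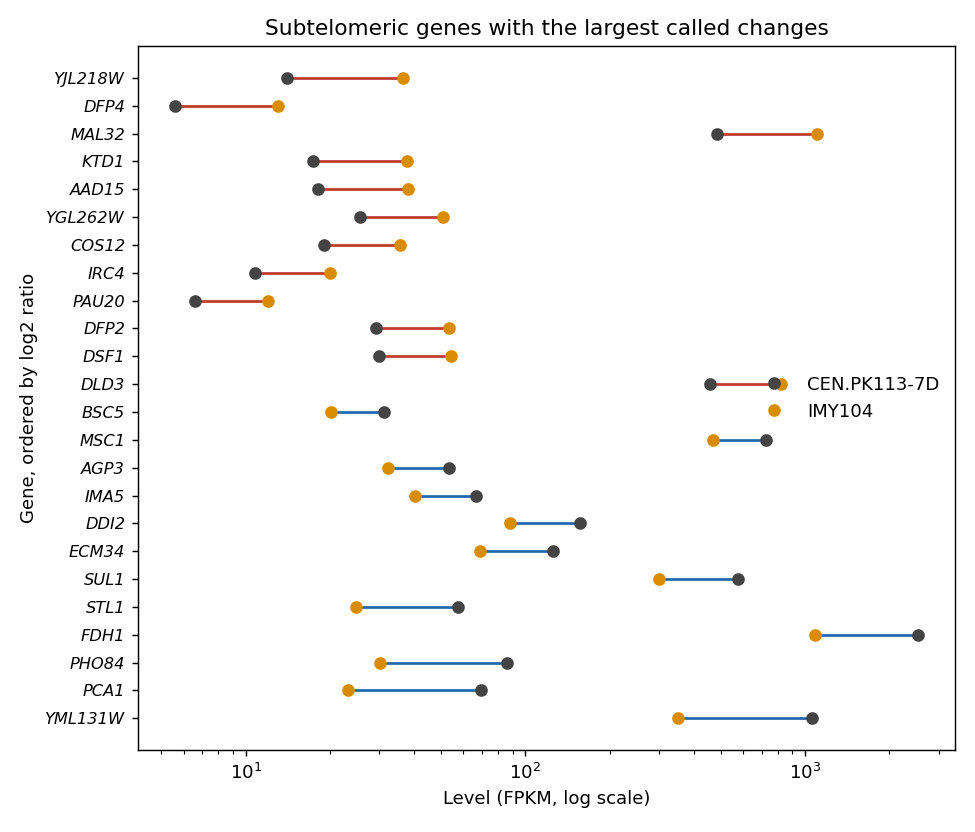
Levels (FPKM, log scale) of the 12 members with the largest called rise and the 12 with the largest called fall, with CEN.PK113-7D in grey, IMY104 in orange and the line red where IMY104 is higher and blue where it is lower. MAL32 rises from 485 to 1101 FPKM and FDH1 falls from 2541 to 1088, while DFP4 and PAU20 stay under 14 FPKM in both strains.

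By family, 64 members stood on lists of gene families and functions, which also hold genes far from any end. Of these 21 were higher and 8 lower (45.3% called). Of the 135 other tested members 32 were higher and 23 lower (40.7% called). The share called was 42.2% over all tested members and 22.5% over all chromosomal genes. Genes for the use of maltose and related sugars were called in both directions. The maltose permease gene MAL31 went from 219 to 300 FPKM, the alpha-glucoside transporter gene MAL11 from 255 to 447 and the isomaltase gene IMA1 from 40.6 to 57.7 in the authors' deposited table. These rose with MAL32, whereas the activator genes MAL13, MAL33 and YPR196W had log2 ratios of 0.18, 0.10 and 0.16 and were not called, per the authors' deposited table. IMA5 fell and a model named MPH3, for a maltose transporter, was not called, so 4 of 9 were higher and 1 lower. MAL32 and MAL31 have near-identical copies at other ends.

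The COS genes, whose membrane proteins help sort others to the vacuole, had 3 of 4 members higher, beside 11.5% of all genes and 48.8% of those within 5 kb of an end. COS10, at the right edge of chromosome 14, went from 12.8 to 22.2 FPKM and COS8 from 65.9 to 86.4 in the authors' deposited table. COS9, at 14482 bp, was listed at 88.6 and 83.9 FPKM and was not called, per the authors' deposited table. Of 5 seripauperin and DAN genes, small cell wall mannoproteins mostly known from anaerobic growth, the models named PAU8 and PAU20 rose. The 5 were listed at 2.26 to 14.8 FPKM in CEN.PK113-7D in the authors' deposited table. PAU16 had 2.26 and 4.51 FPKM and was not called (q = 0.18) in the authors' deposited table. The flocculin gene FLO10 rose from 9.17 to 13.0 FPKM, and IMD2, an IMP dehydrogenase of guanine nucleotide synthesis, from 77.2 to 126 in the authors' deposited table.

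Transporters of hexoses, metals, sulfur compounds, phosphate and amino acids were also among the members. Their counts stand beside 42.2% called of all tested members and 22.5% of all chromosomal genes. Of 4 hexose transporter genes HXT9 rose, with a log2 ratio of 0.35, and HXT8, HXT13 and HXT15 were not called, per the authors' deposited table. Of 7 genes listed for iron and siderophore uptake, the siderophore transporter gene ENB1 and the reductase gene FRE5 rose, with 0.32 and 0.60, and ARN1 fell with -0.32 in the authors' deposited table. The 7 include a model named VTH2, to which the authors' annotation gives a function in vacuolar protein targeting instead. Of 6 genes for sulfur compounds MHT1, a methyltransferase for S-methylmethionine, rose with 0.49, and SUL1 and the cysteine transporter gene YCT1 fell, with -0.95 and -0.51, per the authors' deposited table. PHO84 and PHO89 fell among 3 phosphate genes, and the acid phosphatase gene PHO12 had -0.20 and was not called, per the authors' deposited table. Among 3 amino acid, allantoate and peptide transporters AGP3 fell and DAL5 and OPT2 were not called. Both aquaporin-related genes, AQY1 and AQY3, rose, with log2 ratios of 0.68 for AQY1 and 0.25 for AQY3 in the authors' deposited table.

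The same shares, 42.2% of tested members and 22.5% of all chromosomal genes, stand beside the counts of the families that follow. Of the vitamin genes SNO3 and a model named SNZ2 rose and SNZ3 was not called. These pyridoxine genes are near-identical to copies elsewhere. Among 5 aryl-alcohol dehydrogenase genes AAD15 rose and AAD4, AAD6, AAD10 and AAD14 were not called, with log2 ratios from -0.22 to 0.03 in the authors' deposited table. Of 4 other dehydrogenase genes DSF1 rose, FDH1 fell, and SOR2 and ADH4 were not called. None of the 5 genes listed for arsenic, metal and drug efflux was called by Cuffdiff, and none had an unadjusted p under 0.05. Of these ARR1, ARR2 and ARR3, the arsenic resistance cluster, are the outermost 3 models of the right end of chromosome 16, with log2 ratios of 0.07, -0.13 and -0.06 in the authors' deposited table. SGE1, a drug pump gene outside that list and named here after its value was seen, is the next gene inward and rose with 0.35 in the authors' deposited table. ERR2 and the model named YRF1-2, for a helicase of the Y' element, were not called.

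Of the 8 members with the highest levels 5 were not called, 2 fell and 1 rose. Beside this, 42.2% of all tested members and 22.5% of all chromosomal genes were called. YRF1-2 was listed at 5382 FPKM in CEN.PK113-7D, on a model of 102 bp with many near-identical copies, so this level is uncertain in the authors' deposited table. HXK1, encoding hexokinase 1, rose from 3003 to 4020 FPKM (q = 0.000874) at 10176 bp from the end of chromosome 6 in the authors' deposited table. The cytochrome oxidase assembly gene COX14, the cell wall glucanase gene BGL2, the mitochondrial ketoglutarate dehydrogenase subunit gene KGD4 and the peroxidase gene HYR1 were listed at 2825, 2252, 1338 and 1005 FPKM in CEN.PK113-7D and were not called, per the authors' deposited table. FDH1 and YML131W, the remaining members of the top 8, both fell.

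Genes of silencing and of telomere upkeep, of which SIR1 and RPD3 are members, were all measured. Of the 56 listed, 4 were higher, 5 lower and 47 not called, beside 22.5% called over all genes, and their median log2 ratio was 0.02. SIR4, the scaffold of the Sir complex, was listed at 33.1 and 22.9 FPKM and fell with -0.53 in the authors' deposited table. SIR2, the deacetylase, SIR3, which spreads along nucleosomes, and SIR1, on chromosome 11, had 0.06, -0.02 and 0.18 and were not called, per the authors' deposited table. ABF1, a silencer and promoter binding factor, rose with 0.43, and TEN1, of the complex that caps telomeres, fell with -0.28 (q = 0.0417) in the authors' deposited table. The deacetylase gene HDA1 rose with 0.25 (q = 0.0403) in the authors' deposited table, while RAP1, RIF1, RIF2, YKU70, YKU80 and DOT1 were not called. Of 9 genes for NAD+ supply BNA4 and BNA1 rose, with 0.26 and 0.30, and the nicotinamidase gene PNC1 fell with -0.47 in the authors' deposited table. The kinase genes TEL1 and MEC1 fell, with -0.32 and -0.26, and the telomerase genes EST1, EST2 and EST3 were not called, per the authors' deposited table. The part of these genes in the subtelomeric changes was not tested.

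The members also differed from other genes in features that did not choose them. The authors' annotation gave 56.0% of them an unknown function, against 43.0% of the other chromosomal genes, and 7.50% a function in transport, against 2.66%. Among genes 20 to 40 kb from an end these shares were 41.4% and 5.70%, so the share in transport was raised there too. Their models were shorter, with a median length of 1098 bp against 1251 bp. Transcription ran towards the end of the chromosome for 114 members (57.0%), against 50.3% of the other genes. At the inner edge of the window AQY3, KRE28 and YJR149W lay just inside, with log2 ratios of 0.25, 0.21 and 0.21 in the authors' deposited table. Just outside lay BNA6, CBP1 and a second, longer model of HXT13, with 0.20, 0.03 and 0.65 in the authors' deposited table.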

How the data were processed

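RNA-seq of 6 libraries, 3 per strain, was taken as deposited. The submitters' processing notes name BWA 0.5.9-r16, CASAVA 1.8.2, Cuffdiff, Cufflinks and SAMtools 0.1.7-r510, with no roles. The genome build is not given in the sources used here. Libraries of a strain, 3 each, were combined by the authors into a single FPKM value for every gene model, per the file headers, and the header for the IMY104 libraries holds the strain name cenpk102-12a. The deposited table also holds a log2 fold change, a signed fold change (another unit), a test statistic (a score), a p-value and a q-value for each model. With no value per library, the authors' test was used as such in place of limma, and neither depth nor precision per library can be given.

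Gene models are JIGSAW predictions per the file's model names, with coordinates of the authors' own assembly counted from 1. Of 210 models in the window, 10 that shared their name with a kept model of equal or greater length were dropped; those named PAU20 and PAU22 lay at another end than the kept model. Of 190 named members, 189 matched assembly R64, used for symbols and gene order. Medians and counts were computed with Python 3.11.15, pandas 2.3.3 and numpy 2.4.6, and drawn with matplotlib 3.10.9. The selection was tested on simulated data. The median log2 ratio used deposited ratios over members above 0 in both strains. Genes named are those called with at least 2-fold change, the 12 largest called rises and falls, the 8 highest levels, outermost genes, family members, window-edge genes and called silencing factors. Members and lists were chosen with earlier results of these data known. No sequence is printed, because the genome used here is of another build.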

Additional observations from a re-analysis of the deposited data

How the results depend on the processing

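Results were recomputed with other call thresholds, windows, model choices, silence limits, pseudocounts and scalings. With a window of 10 kb, 45 of 88 tested genes were called, 32 higher and 13 lower, and the median log2 ratio was 0.13. Fewer genes enter by construction. The share called was 51.1%, beside 22.5% of all chromosomal genes. The share silent in both strains was 1.12% in that window, 1.5% under 5 FPKM and 0% under 0.1 FPKM, and also 0% without models that are unnamed or named for another chromosome. With limits of 10 and 20 FPKM, chosen after seeing the data, it was 5.0% and 15.5%. Without members of the family lists, a choice made after seeing the data, 24 tested genes remained within 5 kb. Of these 11 were called higher (45.8%) and 3 lower (12.5%). Their median log2 ratio was 0.14, against 0.30 for all genes within 5 kb. The remaining settings kept each count of called members within 1.5 times its value. With a pseudocount of 5 FPKM, 7 members in place of 10 were called with at least a 2-fold change. The rises of KTD1, AAD15 and DFP4 were then under 2-fold, with log2 ratios of 0.93, 0.89 and 0.77. Every fall of at least 2-fold kept that size. The median log2 ratio was 0.03 after quantile normalization. Quantile normalization flipped the direction of no called member. Centring, a shift of 0.01, and a pseudocount of 5 FPKM could flip none, so they were no check of direction. At q under 0.01, 41 members were higher and 28 lower. The share of all chromosomal genes at that limit is not given here, so these counts cannot be set beside it. No paired analysis was possible because the table holds no value per library, and leaving out a replicate could not be run for the same reason. The unknown depth limits what can be said of members under 10 FPKM.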
